A study of Homo sapiens with 8 samples.

Results

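The interferon-stimulated genes are a set of 45 symbols, and each was found once among the 48162 genes measured by RNA sequencing in KYSE70 and KYSE450, a pair of human esophageal squamous cell carcinoma cell lines. Members were taken by gene name from a given list, and 32 of the 45 had a mean of at least 1 FPKM (a count of fragments scaled by transcript length and by library size) over the 8 libraries. The other 13 members lay under that level and entered no test. The study altered NMR, a long noncoding RNA, in both lines. In the knockdown group a lentivirus packaged in HEK 293T cells was used to infect the cells, and its reference was a knockdown control in the same lentiviral arm. In the overexpression group the cells were transfected with the plasmid vector PCDNA3.1, and its reference was a group labelled only as control. The labels do not say what that control received, and it is counted with the plasmid arm here. Each of the 4 groups had 1 library of each line, all from cells at passage 5 to 10, so each line and group had no replicate and every p-value measures only the spread between these 8 libraries. No listed gene carries the name NMR, so neither manipulation was checked on its target.

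Interferons bind receptors at the cell surface and activate the kinases JAK1 and TYK2, which phosphorylate STAT2. With IRF9 it forms part of the factor ISGF3, which binds a short DNA element, the interferon-stimulated response element, and raises the transcription of antiviral genes. Epithelial cells carry type I and type III interferon receptors, and tumour cell lines often hold a steady, low level of such transcripts without added interferon. Among the members, DDX58 (RIG-I), IFIH1 (MDA5) and DDX60 take part in sensing viral RNA. The IFIT, OAS, MX, IFITM and BST2 proteins act directly against viruses, and ISG15, UBE2L6, HERC5, HERC6 and USP18 attach or remove the small protein ISG15. STAT2, IRF9 and IRF7 are transcription factors of the response itself.

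The response element could be read in the promoters of the members. In RefSeq promoter windows of build GRCh38.p14, which run from 250 bases before to 50 bases after a gene's start, 37 members were matched. The core letters GAAANNGAAA, or TTTCNNTTTC on the other strand, occurred in 24 of these 37 windows (64.86%), against 996 of 27305 windows of all genes (3.648%). The core of the gamma-activated site, TTCNNNGAA, which reads the same on both strands, occurred in 9 of the 37 (24.32%), against 7.881% of all windows. USP18, IRF7, OASL, IFIT2, IFITM2, TRIM22, MX2 and OAS2 were not matched. A match is a description of letters, not of bound sites. The stretches around the matches follow for members on which the results turn, 5′ to 3′ on the strand of the gene, with the matched cores in capitals, where adjoining cores overlap.
DDX60, minus strand, chr4:168318776-168318860: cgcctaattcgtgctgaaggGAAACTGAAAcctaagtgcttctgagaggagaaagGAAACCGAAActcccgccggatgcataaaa
IFIT1, plus strand, chr10:89392487-89392549: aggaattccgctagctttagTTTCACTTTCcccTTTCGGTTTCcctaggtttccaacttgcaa
IFI44, plus strand, chr1:78649751-78649800: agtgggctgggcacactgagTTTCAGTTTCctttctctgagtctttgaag
HERC5, plus strand, chr4:88456974-88457074: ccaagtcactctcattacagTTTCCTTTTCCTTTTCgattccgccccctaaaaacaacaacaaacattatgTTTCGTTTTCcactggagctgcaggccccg
SAMD9, minus strand, chr7:93118086-93118135: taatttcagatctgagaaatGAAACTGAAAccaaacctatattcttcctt
BST2, minus strand, chr19:17405725-17405780: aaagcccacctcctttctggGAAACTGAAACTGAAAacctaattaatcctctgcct
IFITM1, plus strand, chr11:313980-314063: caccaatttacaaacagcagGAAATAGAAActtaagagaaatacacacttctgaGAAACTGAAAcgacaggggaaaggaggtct
LGALS3BP, minus strand, chr17:78979952-78980001: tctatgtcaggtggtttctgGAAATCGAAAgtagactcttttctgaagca
DDX60 and IFIT1 had the largest values shared by both knockdown pairs. IFI44, HERC5 and SAMD9 were lower in KYSE70 than in KYSE450, and BST2, IFITM1 and LGALS3BP were higher. The core letters were thus present on both sides of the line difference. STAT2 and UBE2L6, which also differed between the lines, had no match in their windows.

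Squamous markers summed to 7721 to 26046 FPKM in the 8 libraries, and those of leukocytes to 0.499 to 1.46 FPKM. KRT5, KRT6A, TP63, SOX2, EPCAM and DSG3 were at 35.68 FPKM or more in every library. KRT17 was at 0.341 to 0.873 FPKM in KYSE70, against 190 to 264 FPKM in KYSE450. KRT14 was at 3.20 to 38.3 FPKM in KYSE70, against 371 to 1211 FPKM in KYSE450. Fibroblast markers summed to 20.9 to 37.6 FPKM, mostly COL1A1 at 20.6 to 37.0 FPKM, and endothelial markers to 0.733 to 4.29 FPKM. Of the 4 markers of plasmacytoid dendritic cells, interferon producers of blood, LILRA4 was listed at 0 in every library and CLEC4C stayed at or under 0.0356 FPKM, whereas IL3RA was at 1.38 to 30.1 FPKM and TCF4 at 15.2 to 47.4 FPKM, so that the list summed to 16.6 to 70.05 FPKM. Whole reads could be recovered from the FPKM steps and came to 26401805 to 37937856 per library, the highest being the KYSE450 knockdown control. The KYSE70 knockdown library stood apart in its mitochondrially encoded share of FPKM, which was 8.63%, against 3.84% to 5.75% in the other 7 libraries. In the knockdown pair of KYSE70 the difference between the libraries followed GC content across genes (Spearman -0.48 over 13914 genes), against 0.04 in KYSE450. The part of the mitochondrial share in the results was not tested. With GC and length trends removed, the knockdown again gave 0 members called, beside 0% of all genes. The main fit also called 0% of all genes, so this count cannot show what part the GC trend had. In bulk RNA, fewer cells expressing a gene and less RNA per cell cannot be told apart.

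Levels of the members spanned a wide range. LGALS3BP, a secreted glycoprotein, averaged 206 ± 9.0 FPKM in KYSE70 and 52.3 ± 20.2 FPKM in KYSE450 (SD, n = 4 libraries each, of different treatment). IFITM3, which blocks viral entry at endosomes, averaged 141 ± 24.0 FPKM in KYSE70 and 114 ± 36.8 FPKM in KYSE450. These were the most abundant members together with BST2 and STAT2, and the other 28 tested members averaged under 20 FPKM. The low members included several widely used interferon markers. MX2, OAS2, XAF1, EPSTI1, RSAD2 and CMPK2 stayed at or under 0.23 FPKM in every library. CXCL10, an interferon-induced chemokine, was listed at 0 in the KYSE70 knockdown, against 0.451 FPKM in its control, and was at 0.146 FPKM in the KYSE450 knockdown, against 0.0673 FPKM in its control. It was listed at 0 in the 4 plasmid libraries, and its values above 0 rest on 14, 5 and 3 reads. IFI44L was at 0 to 0.0270 FPKM in KYSE70 libraries and at 0.237 to 2.17 FPKM in KYSE450 libraries, with the highest value in the knockdown.

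**Figure D1:**
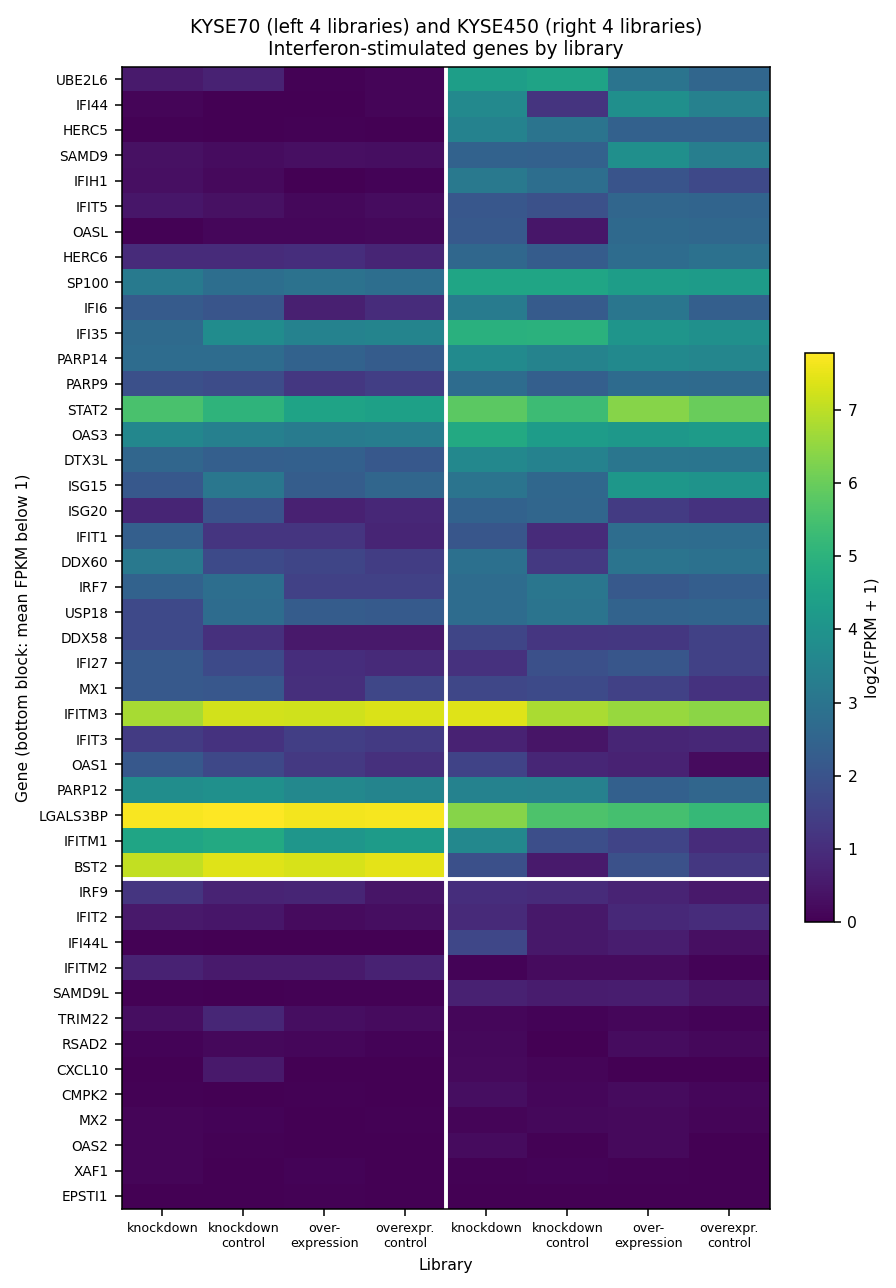
Levels of the 45 members on the log2(FPKM + 1) scale (colour) in 8 libraries (columns), 4 of KYSE70 on the left and 4 of KYSE450 on the right. The 32 tested genes are ordered by the line difference, and the bottom block holds the 13 with a mean under 1 FPKM; UBE2L6, IFI44 and HERC5 are dark in all KYSE70 libraries, and BST2 is bright there.

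The 2 cell lines differed in most members, and most of those that differed were lower in KYSE70. Of the 32 tested members, 24 passed the threshold in the line comparison (limma on log2(FPKM + 1), Benjamini-Hochberg adjusted p under 0.05 over 14311 genes), against a background of 54% of all genes tested. In KYSE70 relative to KYSE450, 6 members rose (background 26.6%) and 18 fell (background 27.4%). The median difference over the 32 members was -0.92 on the log2 scale, against -0.02 over all genes tested. In 15 members all 4 KYSE70 libraries lay below all 4 KYSE450 libraries, which held for 24.5% of all genes. In 5 members all 4 lay above, against 24.1% of all genes. UBE2L6, IFI44, SAMD9, HERC5, HERC6, IFIH1, IFIT5 and OASL averaged under 1 FPKM in KYSE70 and passed the filter only through KYSE450. OAS1 and IFIT3 averaged under 1 FPKM in KYSE450 and passed it only through KYSE70. The filter thus fixed the direction of these members, and their direction is no separate evidence on the lines. The same filter acted on all genes tested.

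The ISG15 conjugation genes gave some of the largest differences. UBE2L6, the E2 enzyme that carries ISG15, was at 0.470, 0.665, 0.0345 and 0.0658 FPKM in the KYSE70 knockdown, knockdown control, overexpression and overexpression control, and at 19.5, 21.7, 6.90 and 4.93 FPKM in the same groups of KYSE450. It fell by 3.24 on the log2 scale in KYSE70 (SE 0.257, adjusted p = 8.01e-05). HERC5, the ligase that works with it, was at 0.0142 to 0.0338 FPKM in KYSE70, which is 1 or 2 recovered reads per library, and at 4.29 to 9.85 FPKM in KYSE450. Its fitted difference was -2.78 (SE 0.215, adjusted p = 7.26e-05), and this scale understates the change of genes near 0. HERC6, a related ligase that carries this activity in mice, fell by 1.69. ISG15 itself was not called: it was at 3.46 to 7.44 FPKM in KYSE70 and at 5.11 to 16.5 FPKM in KYSE450. The lines overlapped, with the KYSE450 lentiviral libraries, at 7.02 and 5.11 FPKM, under the KYSE70 knockdown control. USP18, which removes ISG15 and restrains the receptor, was not called either, at 2.31 to 5.77 FPKM in KYSE70 and 4.58 to 7.02 FPKM in KYSE450.

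Of the RNA sensors IFIH1 was called, and of the factors of the response STAT2 and IRF7 were. IFIH1 was at 0.0173 to 0.236 FPKM in KYSE70 and at 2.26 to 7.85 FPKM in KYSE450, and fell by 2.27 in KYSE70 (SE 0.231, adjusted p = 0.000247). DDX58 had 0.434 to 2.31 FPKM in KYSE70 and 1.35 to 2.11 FPKM in KYSE450, and DDX60 had 1.68 to 7.76 FPKM in KYSE70 and 1.43 to 6.90 FPKM in KYSE450; neither was called and both overlapped. STAT2 was at 20.5 to 45.3 FPKM in KYSE70 and 39.1 to 80.5 FPKM in KYSE450, and was among the 18 that fell although the KYSE70 knockdown exceeded the KYSE450 knockdown control. IRF7 also fell, at 1.82 to 6.02 FPKM in KYSE70 and 3.48 to 7.23 FPKM in KYSE450. STAT2 lost its call without any 1 of the plasmid libraries (adjusted p of 0.0565 to 0.0726), and IRF7 without any 1 of these or without the KYSE450 knockdown control (adjusted p of up to 0.192). IRF9 was low in both lines, at 0.359 to 1.28 FPKM in KYSE70 and 0.459 to 1.04 FPKM in KYSE450.

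Antiviral effectors went in both directions within the same gene family. Among the IFIT genes, whose proteins bind viral RNA ends, IFIT5 fell by 1.95 in KYSE70 (SE 0.196, adjusted p = 0.000229), IFIT3 rose by 0.60 (SE 0.146, adjusted p = 0.0117) and IFIT1 was not called. The call of IFIT3 was lost without either overexpression library (adjusted p of 0.0503 and 0.0512). IFIT1 and IFIT3 lie within the span of LIPA on the opposite strand, and no source used here states whether counting used strand. Among the oligoadenylate synthetases, which activate RNase L, OAS1 rose by 0.71 (SE 0.152, adjusted p = 0.00704). OASL, a relative without that enzyme activity, fell by 1.85 (SE 0.366, adjusted p = 0.00503), with 0.0262 to 0.132 FPKM in KYSE70 and 0.383 to 5.29 FPKM in KYSE450. For OAS1 the lines overlapped, at 1.12 to 3.43 FPKM in KYSE70 and 0.176 to 1.96 FPKM in KYSE450. The limma call of OAS1 was lost without the replicate block (adjusted p = 0.0825). OAS3 was at 8.46 to 11.2 FPKM in KYSE70 and at 16.6 to 25.4 FPKM in KYSE450, without overlap.

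BST2 and IFITM1 rose in KYSE70 by more than any other member. BST2, or tetherin, which holds budding virus at the cell surface, was at 133, 169, 157 and 176 FPKM in the KYSE70 knockdown, knockdown control, overexpression and overexpression control, and at 2.72, 0.479, 2.83 and 1.41 FPKM in those of KYSE450. It rose by 5.90 in KYSE70 (SE 0.279, adjusted p = 9.29e-06), the largest difference of any member. IFITM1, a membrane protein that restricts viral fusion, was at 16 to 25.6 FPKM in KYSE70 and at 1.0 to 11.3 FPKM in KYSE450, and rose by 2.39 (SE 0.357, adjusted p = 0.00143). It overlaps IFITM2 on the same strand in the annotation, so reads of the 2 genes may be split uncertainly. LGALS3BP rose by 2.02 (SE 0.189, adjusted p = 0.000169). IFITM3, at 107 to 162 FPKM in KYSE70 and 84.8 to 167 FPKM in KYSE450, was not called.

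The remaining members were mostly lower in KYSE70. IFI44 was at 0.0795, 0, 0 and 0.0668 FPKM in the KYSE70 knockdown, knockdown control, overexpression and overexpression control, and at 11.8, 1.25, 13.5 and 9.62 FPKM in those of KYSE450. SAMD9, a cytosolic antiviral factor, was at 0.203 to 0.287 FPKM in KYSE70 and at 4.37 to 13.6 FPKM in KYSE450. The fitted difference was -2.98 for IFI44 (SE 0.427, adjusted p = 0.0012) and -2.70 for SAMD9 (SE 0.273, adjusted p = 0.00024). SP100, a component of nuclear bodies, fell by 1.5 and IFI6, a mitochondrial and endoplasmic reticulum protein, fell by 1.23. The call of IFI6 was lost with no filter on low values (adjusted p = 0.0589). PARP9, PARP14 and DTX3L fell as well, whereas PARP12, an ADP-ribosyltransferase, rose by 0.76. The call of PARP12 was lost without any 1 plasmid library (adjusted p of 0.0533 to 0.0587), that of ISG20 without any 1 lentiviral library (0.0539 to 0.0695) and that of IFI35 without either knockdown control (0.0762 and 0.0773). PARP9 and DTX3L overlap on opposite strands.

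**Figure D2:**
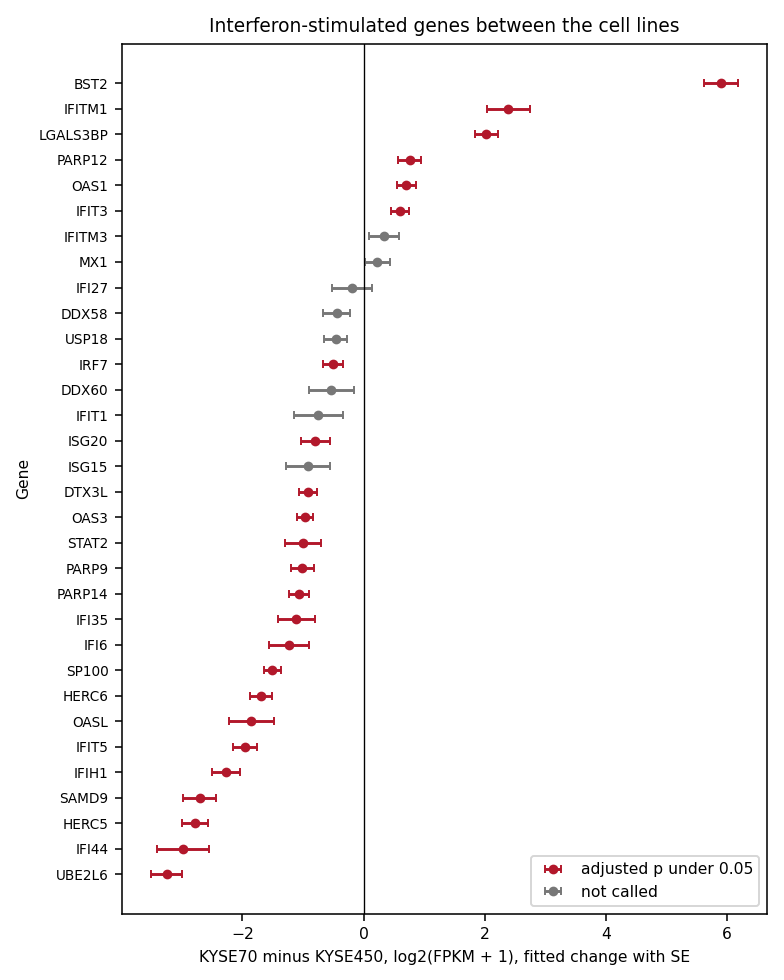
Fitted difference KYSE70 minus KYSE450 (horizontal axis, log2(FPKM + 1), bars are SE) for the 32 tested members, red where the adjusted p was under 0.05. BST2 lies at 5.90 and UBE2L6 at -3.24; 18 red points lie left of 0 and 6 lie right of it.

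Outside the set, several genes of the signalling chain differed between the lines. All 10 interferon genes listed were found. IFNA2 and IFNG were listed at 0 in every library, and IFNE, an epithelial interferon, was the single one tested. IFNE was called lower in KYSE70, by 1.01, at 0.103 to 0.453 FPKM there and 0.536 to 2.93 FPKM in KYSE450. JAK1 was at 3.49 to 8.04 FPKM in KYSE70 and at 61.7 to 76.1 FPKM in KYSE450, and fell by 3.36 in KYSE70 (SE 0.199, adjusted p = 2.31e-05). MB21D1, which encodes the DNA sensor cGAS, was at 0.0190 to 0.128 FPKM in KYSE70 and at 27.4 to 38.0 FPKM in KYSE450. TMEM173, which encodes its partner STING, rose by 2.18 in KYSE70 (SE 0.206, adjusted p = 0.000179). Of 9 receptor and kinase genes tested, 2 rose and 2 fell in KYSE70. Of 7 transcription factors 2 rose and 3 fell, of 12 nucleic acid sensing genes 5 rose and 4 fell, and of 7 negative regulators 1 rose and 4 fell, beside 26.6% of all genes that rose and 27.4% that fell. Calls were thus made in both directions in each of these lists.

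The knockdown raised or lowered no member past the threshold. None of 32 was called by limma, against a background of 0% of all genes, and none by voom on the recovered reads; 8 had an unadjusted p under 0.05, against 12.5% of all genes. The median over the 32 members was 0.21 on the log2 scale, with 0.07 in KYSE70 and 0.36 in KYSE450, against 0.00 over all genes. In 17 members the knockdown library exceeded its control in both lines, against 27.1% of all genes, and in 5 it lay below in both, against 25.9%.

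DDX60 and IFIT1 had the largest values shared by both lines. DDX60 was at 7.76 FPKM in the KYSE70 knockdown, against 2.33 FPKM in its control, and at 6.25 FPKM in the KYSE450 knockdown, against 1.43 FPKM in its control. The differences were 1.40 in KYSE70 and 1.58 in KYSE450 on the log2 scale, and the fit gave 1.49 (SE 0.165, adjusted p = 0.199). IFIT1 was at 4.10 FPKM in the KYSE70 knockdown, against 1.30 FPKM in its control, and at 3.21 FPKM in the KYSE450 knockdown, against 0.939 FPKM in its control, with a fitted value of 1.13 (SE 0.177, adjusted p = 0.199). The overlapping LIPA was at 51.5 FPKM in the KYSE70 knockdown, against 31.1 FPKM in its control, and at 80.3 FPKM in the KYSE450 knockdown, against 77.5 FPKM in its control. In KYSE450 the plasmid libraries had DDX60 and IFIT1 as high as the knockdown or higher, and the knockdown control was the lowest of the 4 for both genes.

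The threshold was sensitive to which libraries were fitted. With the 4 lentiviral libraries alone, DDX60 (adjusted p = 0.0063) and IFIT1 (adjusted p = 0.0446) were called, beside 0.259% of all genes. Without the KYSE70 knockdown or its control the fit used 1 knockdown pair and assumed that it varied like the overexpression pairs, and 8 members were called, all higher, beside 4.05% and 4.07% of all genes. Without either library of the KYSE450 pair 9 of 32 were called, 4 higher and 5 lower, beside 33.8% of all genes, so calls were then frequent in the whole table. Leaving out a plasmid library gave 1 or 2 calls, beside 0.252% to 0.286% of all genes.

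Several members had a large value in KYSE450 but not in KYSE70, whereas DDX60 and IFIT1 had one in both lines. A knockdown library at least 1 higher than its control on the log2 scale was seen for 7 members in KYSE450, against 0.587% of all genes, and for 2 in KYSE70, against 1.68%. IFI44 was at 11.8 FPKM in the KYSE450 knockdown, against 1.25 FPKM in its control. OASL was at 3.49 FPKM in the KYSE450 knockdown, against 0.383 FPKM in its control. In KYSE70, IFI44 had 0 to 2 recovered reads per library and OASL had 1 to 6, so a change there could hardly be seen. IFITM1 was at 11.3 FPKM in the KYSE450 knockdown, against 2.69 FPKM in its control. For IFI44 and OASL the KYSE450 control was again the low library, since the plasmid libraries had 9.62 to 13.5 FPKM of IFI44 and 5.07 to 5.29 FPKM of OASL. For IFITM1 the plasmid libraries, at 2.02 and 1.0 FPKM, lay under both lentiviral ones. Over all members, the KYSE450 knockdown control was the lowest of its 4 libraries for 15 of 32, against 31.2% of all genes.

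A smaller set lay at least 1 lower in the KYSE70 knockdown, which held for 3 members, against 3.74% of all genes, and for none in KYSE450, against 0.37%. ISG20, an exonuclease, was at 0.733 FPKM in the KYSE70 knockdown, against 2.91 FPKM in its control. USP18 was at 2.31 FPKM in the KYSE70 knockdown, against 5.77 FPKM in its control. IFI35 was at 5.42 FPKM in the KYSE70 knockdown, against 12.8 FPKM in its control. For ISG20 the KYSE70 plasmid libraries had 0.624 and 0.83 FPKM, so the control and not the knockdown stood apart, whereas IFI35 and USP18 were lowest in the knockdown itself. ISG15 had opposite directions, at 3.46 FPKM in the KYSE70 knockdown, against 7.44 FPKM in its control, and at 7.02 FPKM in the KYSE450 knockdown, against 5.11 FPKM in its control. None of these passed the test, and the KYSE70 knockdown is the library with the GC trend and the raised mitochondrial share.

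**Figure D3:**
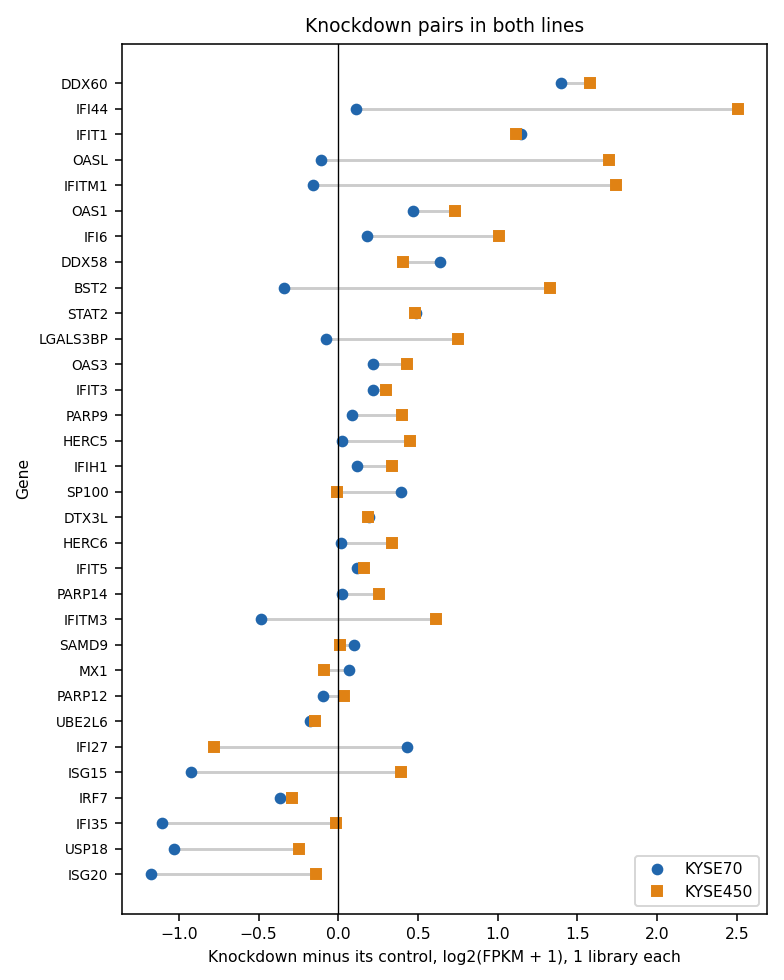
Knockdown minus its control (horizontal axis, log2(FPKM + 1)) for the 32 tested members, with 1 library on each side of a pair; circles are KYSE70 and squares KYSE450. DDX60 and IFIT1 lie right of 1 in both lines, and IFI44, OASL, IFITM1 and BST2 do so in KYSE450.

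Overexpression left the members close to their controls. None of 32 was called (limma, adjusted p = 1.0 for each member), against 0% of all genes; none was called by voom, and none had an unadjusted p under 0.05, against 1.03% of all genes. The median was 0.08 on the log2 scale, with -0.02 in KYSE70 and 0.11 in KYSE450, against -0.01 over all genes. No member was higher or lower by 1 or more on the log2 scale in KYSE70 (background 0.126% higher and 0.105% lower) or in KYSE450 (background 0.273% higher and 0.0978% lower). In 10 members the overexpression library exceeded its control in both lines, against 23% of all genes, and in 2 it lay below in both, against 27.6%.

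The member with the largest value shared by both lines was OAS1. It was at 1.46 FPKM in the KYSE70 overexpression, against 1.12 FPKM in its control, and at 0.686 FPKM in the KYSE450 overexpression, against 0.176 FPKM in its control, with a fitted value of 0.37 (SE 0.181). In KYSE450 this rests on 21 recovered reads in the overexpression and 5 in its control. IFI27 had a fitted value of 0.34 (SE 0.296) and STAT2 of 0.20 (SE 0.142). STAT2 was at 80.5 FPKM in the KYSE450 overexpression, against 63.4 FPKM in its control, and at 21.6 FPKM in the KYSE70 overexpression, against 20.5 FPKM in its control. DDX60, at 2.05 FPKM in the KYSE70 overexpression, against 1.68 FPKM in its control, and at 6.90 FPKM in the KYSE450 overexpression, against 6.43 FPKM in its control, was not lower under overexpression in either line.

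**Figure D4:**
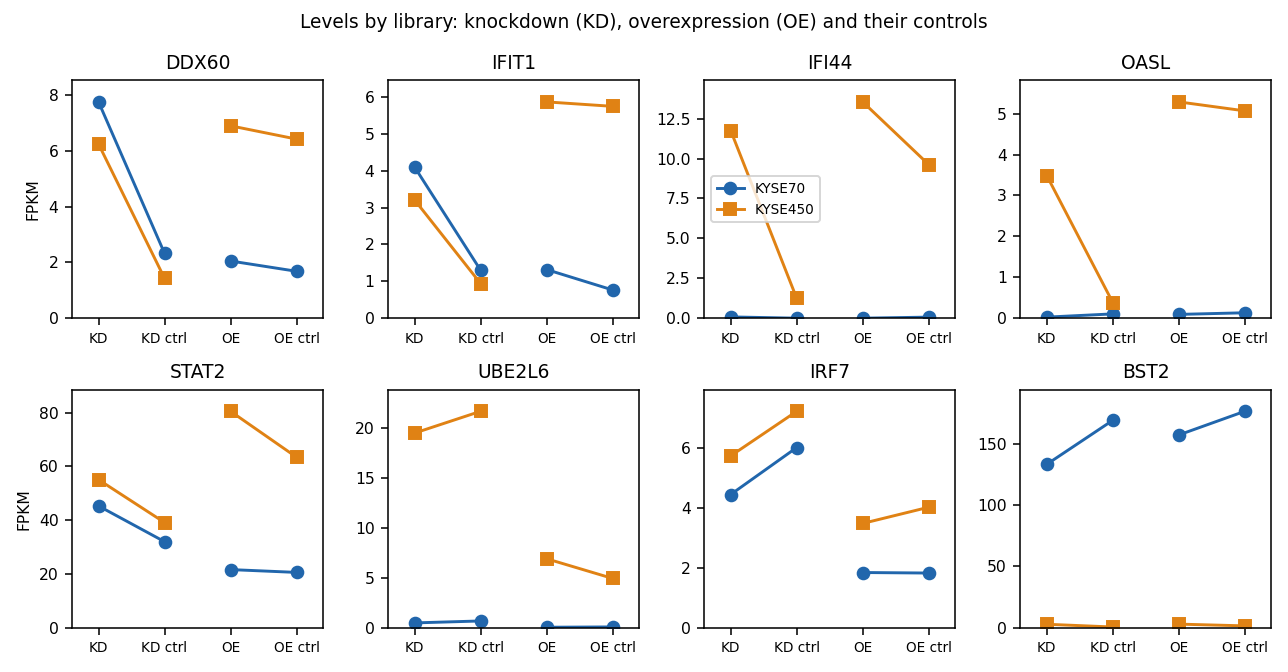
Levels in FPKM (vertical axis, from 0) of 8 members in the knockdown (KD), knockdown control (KD ctrl), overexpression (OE) and overexpression control (OE ctrl) libraries; lines join a treated library to its control, with circles for KYSE70 and squares for KYSE450. The KYSE450 knockdown control is the lowest of its 4 libraries for DDX60, IFIT1, IFI44, OASL, STAT2 and BST2, and IRF7 is higher in all lentiviral libraries of a line than in its plasmid ones.

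The lentiviral arm was set against the plasmid arm to see how much the members moved with delivery. Delivery, the control used and anything else that differed between the arms cannot be told apart. Of 32 members, 1 was called (limma, adjusted p under 0.05), against 4.02% of all genes. IRF7 rose by 0.89 in the lentiviral arm (SE 0.169, adjusted p = 0.0432). It was at 4.45 and 6.02 FPKM in the KYSE70 knockdown and knockdown control, against 1.84 and 1.82 FPKM in the KYSE70 overexpression and overexpression control. In KYSE450 it was at 5.74 and 7.23 FPKM in the knockdown and knockdown control, against 3.48 and 4.02 FPKM in the overexpression and overexpression control. The arms did not overlap in either line. The call was lost without the line as a block (adjusted p = 0.681), and it was lost when any library other than the KYSE450 knockdown was left out (adjusted p of 0.0893 to 0.161).

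UBE2L6, OAS1 and IFITM1 had the same direction as IRF7 without passing the test. UBE2L6 had a fitted value of 1.12 (SE 0.257, adjusted p = 0.0581), OAS1 of 0.71 (SE 0.152, adjusted p = 0.052) and IFITM1 of 0.97 (SE 0.357, adjusted p = 0.141). UBE2L6 was called with a pseudocount of 0.1 (1.97, adjusted p = 0.0253), beside 3.68% of all genes. It was also called by voom on the recovered reads (2.01, adjusted p = 0.0237), beside 6.14% of all genes. In KYSE70 these values rest on few reads of UBE2L6: 12 in the knockdown and 17 in its control, against 1 in the overexpression and 2 in its control. OASL, at -0.69 (SE 0.366, adjusted p = 0.264), lay in the other direction. In the interferon pathway lists, STAT3 rose by 0.70, PML by 0.75, GBP2 by 1.34 and PSMB9, an immunoproteasome subunit, by 1.57 in the lentiviral arm. Calls were 1 of 7 transcription factors, 1 of 12 nucleic acid sensing genes and 2 of 7 genes that respond more to interferon gamma. Of 9 receptor and kinase genes, 7 negative regulators and 1 interferon gene, 0 were called, beside 4.02% of all genes.

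Between the controls alone, the knockdown control set against the overexpression control, limma called no member, against 0% of all genes; voom called none, and 4 had an unadjusted p under 0.05, against 14.5% of all genes. These were UBE2L6 (1.29, SE 0.363), ISG20 (1.26, SE 0.339), IRF7 (1.01, SE 0.24) and OAS1 (0.59, SE 0.215). ISG20 was at 2.91 FPKM in the KYSE70 knockdown control, against 0.83 FPKM in the KYSE70 overexpression control, and at 4.93 FPKM in the KYSE450 knockdown control, against 1.21 FPKM in the KYSE450 overexpression control. IFI44 at -1.17 (SE 0.603) and OASL at -1.08 (SE 0.518) had the opposite sign. Both rest on KYSE450, where the knockdown control was low. The comparisons share these control libraries with the treatment comparisons above.

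The arm difference was also compared between the lines. In KYSE70, both lentiviral libraries exceeded both plasmid libraries for 17 of 32 members, against 42.7% of all genes, and lay below them for none, against 21.5%. In KYSE450 they exceeded them for 16, against 35.2%, and lay below them for 9, against 32.3%. The difference of the differences was tested, and 3 members of 32 were called (limma, adjusted p under 0.05), a share near the background of 6.88% of all genes. STAT2 was at 45.3 and 32.0 FPKM in the KYSE70 knockdown and knockdown control, against 21.6 and 20.5 FPKM in the KYSE70 plasmid libraries. In KYSE450 it was at 55.1 and 39.1 FPKM in the knockdown and knockdown control, against 80.5 and 63.4 FPKM in the plasmid libraries. For STAT2 the lentiviral arm was higher in KYSE70 and lower in KYSE450, and the 2 arm differences differed by 1.44 (SE 0.314, adjusted p = 0.036). SAMD9 had an arm difference of 0.00 in KYSE70 and -1.17 in KYSE450 (difference 1.18, SE 0.271, adjusted p = 0.0421). The call of SAMD9 was lost with a pseudocount of 0.1 (adjusted p = 0.0874) and with no filter on low values (0.122). It was also lost by voom (0.145) and with GC and length trends removed (0.0707). STAT2 lost its call with no filter on low values (adjusted p = 0.1085). UBE2L6 had 0.58 in KYSE70 and 1.66 in KYSE450 (difference -1.08, SE 0.254, adjusted p = 0.0448), but its sign turned with a pseudocount of 0.1 (0.34) and by voom (1.34), with its KYSE70 levels near 0. These calls came from 2 libraries per arm and line. Their number was 5 without the KYSE70 knockdown, beside 14.4% of all genes, and 15 without its control, beside 36.6% of all genes, so that the rise ran through the whole table. It was 3 without the KYSE450 knockdown, of which 1 was shared with those above, beside 3.63% of all genes, and 0 or 1 without any other library, beside 0.252% to 1.09%. STAT2, SAMD9 and UBE2L6 each lost the call without 5 or 6 of the 8 libraries in turn, with adjusted p of 0.0801 to 0.172. The members with the widest spread between lines, IFIT1 (2.01, SE 0.609, adjusted p = 0.0838) and DDX60 (1.78, SE 0.766, adjusted p = 0.18), were not called.

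**Figure D5:**
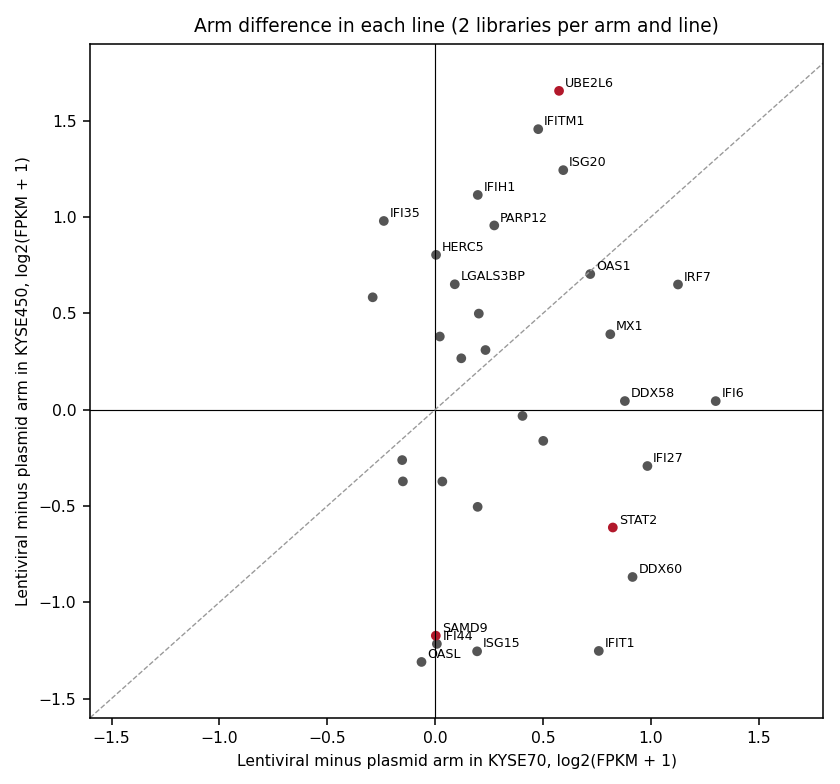
Lentiviral minus plasmid arm in KYSE70 (horizontal axis) and in KYSE450 (vertical axis), both as log2(FPKM + 1) means of 2 libraries per arm, for the 32 tested members; red marks the 3 whose arm difference differed between the lines and the dashed line marks equal differences. STAT2, DDX60 and IFIT1 lie at the lower right and UBE2L6 at the top.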

How the data were processed

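RNA from 8 libraries of KYSE70 and KYSE450 was sequenced by the submitters, who deposited FPKM values per gene with 1 table per library. Per the file headers, the value column carries only the library name, so the unit FPKM is taken from the values. Per the submitters' processing notes, TopHat2 2.0.9 and HTSeq 0.6.1 were used with build hg19, without stated roles; no source used here states whether counting used strand. Depth was recovered from the FPKM steps, which were whole reads within 0.02 reads for all 30872 genes above 0 in at least 2 libraries. Genes with a mean of at least 1 FPKM (14311) were tested with limma 3.58.1 (R 4.3.3, trend) on log2(FPKM + 1), so a fold change is on that scale and understates low genes. Overexpression and knockdown were fitted with each treated library and its control as a block, the other comparisons with line and group terms, and the arm by line comparison over line and arm cells. Benjamini-Hochberg adjustment was over all genes tested, with a threshold of 0.05. Libraries were paired by cell line: the line differences of the groups correlated at 0.80 to 0.97 across genes. The tests were checked on simulated data with an equal random spread in every library. Those data lack the GC trend of the KYSE70 knockdown pair, so the check does not cover the calls under it. The members, marker lists and pathway lists were chosen with earlier results of these data known. Named genes were those called, up to 10 in a direction, and otherwise up to 5 in a direction with the same sign in every pair, ranked by the smaller change. Other members are named with library values only, some of them (IFI44, OASL, ISG15) chosen after those values were seen. The exception is the arm difference between lines. There fitted values are also given for IFIT1 and DDX60, chosen by the size of those values, and for IFITM3 and IFIT5, chosen by the signs of the pairs. Overlaps with other genes used GENCODE 29 on GRCh38, and promoters RefSeq GRCh38.p14; no coordinates were converted. Alternatives were another pseudocount (0.1), other filters (none, mean of at least 5 FPKM), median-ratio scaling, no block, leaving out each library, fewer libraries, voom on recovered reads, and removal of GC and length trends.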

Additional observations from a re-analysis of the deposited data

Results flagged for a closer look

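The arm difference, lentiviral minus plasmid, differed between the lines by the limma test of that difference for STAT2 (1.44 on the log2 scale), SAMD9 (1.18) and UBE2L6 (-1.08). Matched pairs of the arms were knockdown with overexpression, and knockdown control with overexpression control. For 4 further members the lentiviral minus plasmid difference had one sign in both pairs of KYSE70 and the other sign in both pairs of KYSE450. The share of all genes that met this sign rule was not computed, so the number of members cannot be weighed. The rule uses signs alone. The 4 members were IFITM3 (-0.87, adjusted p = 0.138), DDX60 (1.78, adjusted p = 0.18), IFIT1 (2.01, adjusted p = 0.0838) and IFIT5 (0.70, adjusted p = 0.0795). The values are the arm difference in KYSE70 minus that in KYSE450, and none of the 4 passed the limma test of the difference.

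Among the 64 sets of 4 libraries examined, 1 line and 1 member each, 4 held a library far from the other 3 by Dixon's criterion. Chance gives about 1 in 20 such sets, which is 3.2 here. In KYSE450 it was the knockdown control each time, at 1.25 FPKM for IFI44, 1.43 FPKM for DDX60 and 4.06 FPKM for PARP9. In KYSE70 it was the knockdown control for ISG20, at 2.91 FPKM. The other 3 KYSE450 libraries had 9.62 to 13.5 FPKM of IFI44, 6.25 to 6.90 FPKM of DDX60 and 5.38 to 5.68 FPKM of PARP9.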

How the results depend on the processing

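The absence of calls for overexpression and between the controls held under every alternative run. In the line comparison 20 to 24 members were called, beside 24.1% to 56.9% of all genes. The exception was 11 with a mean of at least 5 FPKM, where 13 members were tested, beside 54.5% of all genes. With no filter, STAT2, IFI35, IRF7, IFI6, ISG20 and IFIT3 lost the call (adjusted p of 0.0518 to 0.0922). For the knockdown, 2 members were called with the lentiviral libraries alone (0.259% of all genes) and 1 to 9 with a library left out (0.252% to 33.8% of all genes). In the arm comparison 1 member was called (4.02% of all genes), against 2 with a pseudocount of 0.1 (3.68%) and 4 by voom (6.14%). The number was 0 with no filter (0% of all genes), with a mean of at least 5 FPKM (4.51%) and without the replicate block (0%). With a library left out it was 0 to 1 (0% to 17.2% of all genes). For the arm difference between lines, 3 members were called (6.88% of all genes), against 1 with a pseudocount of 0.1 (5.66%). The number was 1 with a mean of at least 5 FPKM (4.96%), 1 by voom (5.46%) and 0 with no filter (0.331%). It was 8 with GC and length trends removed (10.5% of all genes), 2 higher and 6 lower, and 2 of these were among the 3. It was 0 to 15 with a library left out (0.252% to 36.6% of all genes). The median of the arm difference between lines over members was -0.30 with a mean of at least 5 FPKM, 0.64 by voom and -0.035 to 0.39 with a library left out. For the other comparisons, with a library left out, the median was -0.022 to 0.11 for overexpression and 0.07 to 0.36 for the knockdown. It was 0.23 to 0.34 for the arms and 0.036 to 0.35 between the controls. Values that turned sign were UBE2L6 in the knockdown (0.020 with GC and length trends removed), UBE2L6 in the arm difference between lines (0.34 with a pseudocount of 0.1 and 1.34 by voom), and, without the KYSE450 knockdown control, BST2 between the arms (0.055) and between the controls (0.25) and IFI44 between the controls (0.039). With each library left out in turn these 3 values reached down to -0.58, -1.01 and -2.37. The cause was not tested. Without the replicate block 21 members were called between the lines (50.3% of all genes) and 0 for the knockdown and for overexpression (0%). Leaving it out thus changed no call beyond IRF7 and those in the line comparison. The arm difference between lines has no block to leave out, and the line, arm and arm by line comparisons use all libraries. HERC5, IFI44 and OASL had 0 to 6 reads per KYSE70 library, and UBE2L6 had 1 to 17, which limits their values there.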

Other observations

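Summed over a family, the IFITM genes were at 130 FPKM in the KYSE70 knockdown, against 176 FPKM in its control, and at 178 FPKM in the KYSE450 knockdown, against 112 FPKM in its control. The OAS genes summed to 14.7 FPKM in the KYSE70 knockdown, against 11.8 FPKM in its control, and to 31.0 FPKM in the KYSE450 knockdown, against 19.7 FPKM in its control. The RNA sensors DDX58, IFIH1 and DDX60 summed to 10.3 FPKM in the KYSE70 knockdown, against 3.59 FPKM in its control, and to 16.2 FPKM in the KYSE450 knockdown, against 8.79 FPKM in its control. DDX60 alone made up 7.76 FPKM of the KYSE70 knockdown sum of the sensors. The IFIT genes summed to 6.48 FPKM in the KYSE70 knockdown, against 3.16 FPKM in its control, and to 8.06 FPKM in the KYSE450 knockdown, against 4.55 FPKM in its control. The genes of ISG15 conjugation summed to 7.22 FPKM in the KYSE70 knockdown, against 14.8 FPKM in its control, and to 47.2 FPKM in the KYSE450 knockdown, against 44.6 FPKM in its control. The MX genes summed to 3.61 FPKM in the KYSE70 knockdown, against 3.39 FPKM in its control, and to 2.26 FPKM in the KYSE450 knockdown, against 2.52 FPKM in its control. The OAS, IFIT and sensor sums were thus higher in the knockdown library of both lines, and the IFITM, ISG15 conjugation and MX sums had opposite directions. These sums were not tested.

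Of 14 genes known to respond more to interferon gamma, 7 were tested and 2, GBP2 and PSMB9, rose in the lentiviral arm (limma, adjusted p under 0.05), beside 4.02% of all genes called. GBP2, a guanylate-binding protein, was at 5.68 and 1.98 FPKM in the KYSE70 knockdown and knockdown control, against 0.813 and 0.70 FPKM in the KYSE70 overexpression and overexpression control. In KYSE450 it was at 3.32 and 3.07 FPKM in the knockdown and knockdown control, against 1.20 and 0.261 FPKM in the overexpression and overexpression control. The arms did not overlap in either line for GBP2. All 7 tested genes of the list had a positive arm difference, beside 58.2% of all genes, and the other 5 were not called.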
